A study of Drosophila melanogaster with 6 samples.

Results

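The regions described here are stretches of the left arm of chromosome 3 (3L) that the study's authors called as enriched for the histone variant H2Av in late embryos of Drosophila melanogaster. Members were the deposited regions on 3L whose midpoint lay beyond the first 2 Mb of the arm and up to position 22543557 on FlyBase release 5, which leaves out 2 Mb at each end. The rule used position alone and no measured value. It gave 634 of 4403 regions in ChIP replicate 1, 691 of 5016 in replicate 2 and 664 of 4763 in replicate 3. In a further list, which the authors made for the set of replicates and which is called the combined list here, it gave 779 of 5905 regions. The interiors of X, 2L and 3R, cut in the same way, served as background.

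The embryos were wild-type Oregon-R (Oregon-R-modENCODE), 14 to 16 h old and fixed with 1.8% formaldehyde, and the antibody was named H2AV 9751 in the labels. There were 3 ChIP libraries and 3 inputs of chromatin sequenced without the antibody, all of the same strain and age, and the labels name each input as the one used for 1 of the ChIP lists. No values of the inputs are used here. The labels do not say if replicates were separate collections of embryos, so SDs over replicates measure the spread between these samples and may be technical. The lists hold no read totals, and the depth behind each region is unknown. Chromatin came from whole embryos, in which a mark in fewer cells and less of the mark per cell cannot be told apart.

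H2Av replaces ordinary H2A in part of the nucleosomes. In the fly it is the only variant of H2A with the functions of both H2A.Z and H2A.X. It marks nucleosomes near the starts of active genes, is also found in heterochromatin, and its tail is phosphorylated at DNA breaks. The interior of an arm such as 3L is mostly euchromatin, with gene-dense and gene-poor stretches in turn. No gene annotation of release 5 was used, so regions are named by position and no gene is assigned to them.

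The first question was how H2Av was laid out along the 20.5 Mb of the 3L interior. Replicates 1, 2 and 3 had 14.7%, 16.5% and 16.3% of the interior inside regions (mean 15.8% ± 0.971, SD, n = 3). Replicate 1 was lowest and the other two lay close together. By the experiment numbers in the labels, ChIP replicate 1 stands next to its input and ChIP replicates 2 and 3 next to each other, and whether this marks a batch is not stated, so replicate 1 and such a batch cannot be told apart. The interior carried 30.9, 33.6 and 32.3 regions per Mb, with a median width of 3720, 3682 and 3863 bp. The lower and upper quartiles of width were 2541 ± 141 and 6176 ± 122 bp (SD, n = 3), and the widest member was 31503, 31545 and 31459 bp in the 3 replicates. The interior was then divided into 82 windows of 250 kb. Averaged over replicates, the windows had 0 to 54.0% of their bases inside regions and a median of 15.3%. Windows differed far more than replicates did: the SD across the 82 window means was 10.6 percentage points, and the median SD over replicates within a window was 0.963. The rank order of windows was close to the same in each pair of lists, with Spearman coefficients of 0.983, 0.984 and 0.992 across windows, which share a library and are not independent replicates.

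H2Av-rich windows were those at or above the upper quartile of the 326 windows of the 4 interiors in each of the 3 replicates, which meant shares of at least 20.9%, 23.5% and 23.7%. H2Av-poor windows were at or below the lower quartile in each, at most 7.57%, 8.89% and 8.70%. On 3L 17 of 82 windows (20.7%) were rich and 21 (25.6%) were poor, against 23.0% rich and 22.7% poor over all 4 interiors. The number of rich and poor windows on 3L was thus close to the background. The classes were set by the share itself, so shares by class are a description.

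**Figure D1:**
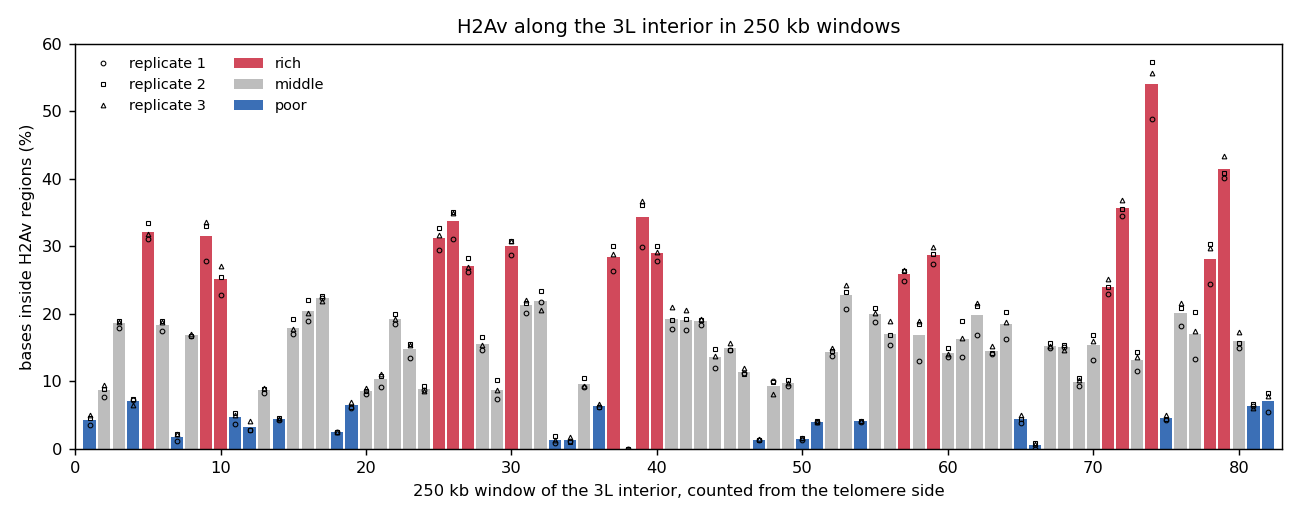
Share of bases inside H2Av regions (%) in each of the 82 windows of 250 kb of the 3L interior, counted from the telomere side. Bars are means of 3 replicates, coloured by class, and open symbols are the replicates; window 74 is the highest at 54.0% and window 38 has 0 in every replicate.

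Rich windows formed 11 blocks and poor windows 15, where a block is a run of adjacent windows of 1 class. No rich block was longer than 750 kb and no poor block longer than 500 kb. The richest block was a single window from 20250001 to 20500000, where H2Av regions took up 49.0%, 57.4% and 55.7% (mean 54.0% ± 4.45, SD, n = 3) with 20, 27 and 21 regions. It ended against a poor window, from 20500001 to 20750000, with 4.21%, 4.44% and 4.99%. The richest window of the arm and a poor one thus stood side by side in every replicate.

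The next richest blocks lay along the whole interior. From 21250001 to 21750000 the share was 34.8% ± 2.29, from 3000001 to 3250000 it was 32.1% ± 1.24, and from 11500001 to 12000000 it was 31.7% ± 2.38 (SD, n = 3 each). The longest rich block, 750 kb from 8000001 to 8750000, had 29.0%, 32.01% and 31.2%, with 46, 50 and 44 regions. Its 3 windows were each rich in all 3 lists, and on X, 2L and 3R the longest rich blocks were also 750 kb.

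Among the poor blocks, the window from 11250001 to 11500000 held no base of a region in any of the 3 replicates, and combined regions had 0 there too. It lay between rich neighbours, at 28.4% ± 1.84 on the telomere side and, over the 500 kb block on the centromere side, 31.7% ± 2.38 (SD, n = 3). A poor block of 500 kb from 10000001 to 10500000 had 0.963% in replicate 1 and 1.5% in both others, with 2, 3 and 2 regions. Other low blocks ran from 13500001 to 13750000 with 1.34% ± 0.0664, from 3500001 to 3750000 with 1.81% ± 0.612, and from 18000001 to 18500000 with 2.46% ± 0.464 (SD, n = 3 each). Whether reads can be placed in these windows was not tested, and low shares are to be read with that limit.

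Neighbouring windows were only weakly alike. Of 81 pairs of neighbouring windows, 6 were both rich, 6 were both poor and 6 were rich beside poor. The Pearson correlation between the share of a window and that of the next was 0.13, at 2 windows' distance 0.10 and at 4 windows' distance 0.01, as a description across windows of 1 arm. The median step to the next window was 8.39 percentage points. On X, 2L and 3R the correlation with the next window was 0.12, 0.16 and 0.00. With the windows split into 3 runs along the arm, the centromere-side windows, from 15750001 to 22500000, averaged 16.9%, 19.3% and 19.3%, against 13.1%, 14.4% and 14.3% in the middle windows and 14.2%, 15.7% and 15.5% on the telomere side. The centromere-side run was highest in each replicate, and it held 7 rich and 5 poor windows, against 4 and 8 in the middle run and 6 and 8 in the telomere-side run.

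Classes set on replicate 1 alone carried over to the lists that did not set them. The 19 windows that were rich in replicate 1 were covered to 22.7 to 57.4% in replicate 2 and 20.6 to 55.7% in replicate 3, and 17 of them were at or above the upper quartile of each. The 22 windows that were poor in replicate 1 reached at most 10.2% in replicate 2 and 8.66% in replicate 3. By definition about 25% of the windows of the 4 interiors lie at or above an upper quartile. The shares of the 2 classes did not overlap in either list, with the windows between the 2 limits left out. Since the lists ranked the windows almost alike, this restates their agreement and is no separate support.

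The second question was what rich and poor windows are made of. On 3L, as on the other arms, they differed mainly in how many regions they held. Rich windows had 56.9, 63.1 and 58.6 regions per Mb and poor windows 8.38, 9.71 and 10.1, a ratio of 6.36 ± 0.508 (SD, n = 3). On X, 2L and 3R this ratio was 5.18 ± 0.973, 6.32 ± 1.00 and 5.58 ± 0.178. The number of regions is part of the share that set the classes, so a high ratio is partly built in. The median width was 3910, 3908 and 4135 bp in rich windows and 3361, 3425 and 3328 bp in poor windows, a ratio of only 1.18 ± 0.0533. The regions of rich windows had a median score percentile of 50.2, 52.5 and 54.2 and those of poor windows 46.7, 48.4 and 48.2. The authors gave each region a score of unstated scale, which is used here only as a percentile within its list.

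On the other arms the regions of poor windows were narrower and ranked lower. In poor windows the median width on 3L was 3371 ± 49.3 bp, against 2585 ± 119 bp on X, 2773 ± 211 bp on 2L and 2883 ± 253 bp on 3R (SD, n = 3). The median score percentile was 47.8 ± 0.933 on 3L, against 40.4 ± 1.18, 32.9 ± 1.93 and 35.3 ± 2.01 on X, 2L and 3R. For both measures 3L was higher in 9 of 9 comparisons of an arm within a replicate. In rich windows the order was turned round for the score: the median percentile was 52.3 ± 1.96 on 3L and 56.1 ± 0.417, 57.1 ± 3.29 and 63.2 ± 0.975 on X, 2L and 3R, and 3L was lower in 9 of 9.

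The width of regions was therefore less graded with class on 3L, with a rich-to-poor ratio of 1.18 ± 0.0533 against 1.61 ± 0.0688 on X, 1.70 ± 0.187 on 2L and 1.42 ± 0.131 on 3R (SD, n = 3). These medians rest on few regions, 44, 51 and 53 in the poor windows of 3L. The 3 replicates hold largely the same regions, so their SD does not cover how the medians would change with other regions. Width is part of the share that set the classes, so no test was made, and this comparison was added after the lists were seen.

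**Figure D2:**
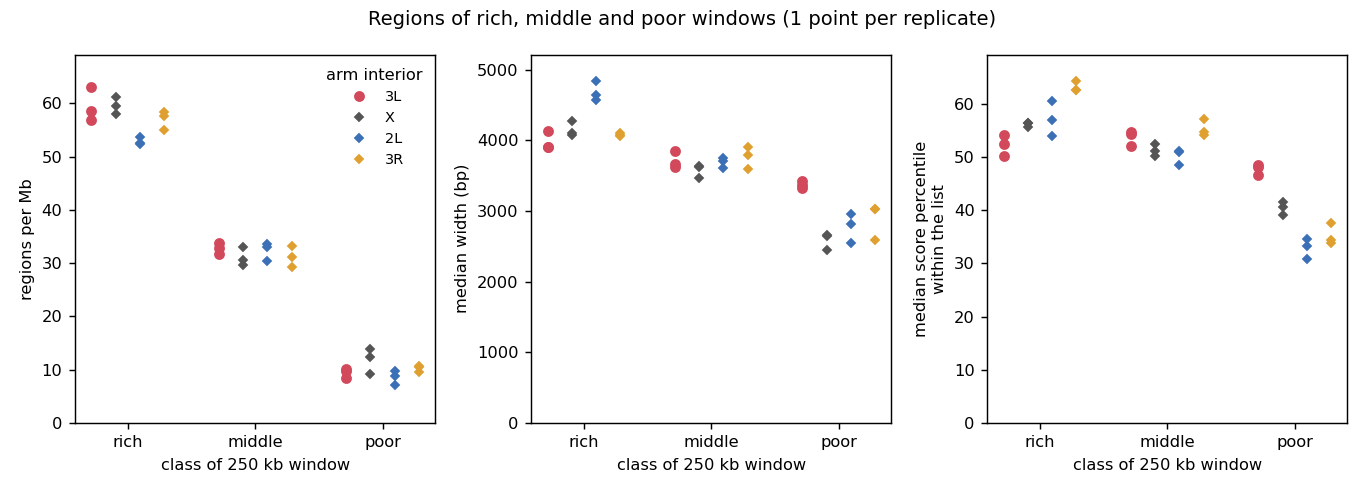
Regions per Mb, median width (bp) and median score percentile within the list in rich, middle and poor windows of 250 kb, with 1 point per replicate for the interiors of 3L, X, 2L and 3R. In poor windows the 3L medians sit above those of the other arms, at 3328 to 3425 bp and percentile 46.7 to 48.4.

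The third question was how the 3L interior as a whole compared with the other interiors. Its share of bases inside regions, 15.8% ± 0.971, was below that of X at 19.03% ± 1.40 and 3R at 16.9% ± 1.16, and close to 2L at 15.6% ± 0.940 (SD, n = 3). As log2 ratios within a replicate, 3L stood at -0.26 ± 0.018 to X, -0.10 ± 0.011 to 3R and 0.02 ± 0.0053 to 2L, each with the same sign in 3 of 3 replicates. Against the mean of the 3 other interiors the log2 ratio was -0.12 ± 0.0099, or 0.921-fold, below 0 in 3 of 3. Without X in the background it was -0.04 ± 0.0057, also below 0 in 3 of 3.

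The number of regions per Mb followed the same order between arms. It was 32.3 ± 1.39 on 3L, against 36.8 ± 1.91 on X, 29.4 ± 1.22 on 2L and 32.9 ± 1.68 on 3R (SD, n = 3). The log2 ratio to the mean of the others was -0.03 ± 0.0074, and it turned to 0.05 ± 0.012 without X. Median width was close to that of the other arms, with a log2 ratio of -0.03 ± 0.0088, and the median gap between neighbours, 4930 ± 589 bp on 3L, differed by 0.10 ± 0.097, about the size of its spread over replicates (0.05 without replicate 1). The median score percentile was 51.2, 53.2 and 53.8 on 3L, against means of 53.5, 53.3 and 54.1 over X, 2L and 3R, a difference of -0.89 ± 1.24 points that was -0.17 without replicate 1. Arm by arm the sign differed. The difference was 1.64 ± 1.74 to 2L, above 0 in 3 of 3 replicates, and -3.84 ± 1.42 to 3R, above 0 in 0 of 3. To X it was -0.46 ± 1.83, above 0 in 1 of 3. For each of these 5 measures an exact sign-flip permutation test, two-sided, gave p = 0.25, also after Benjamini-Hochberg adjustment over the 5, which is the smallest value it allows with 3 replicates. The test can make no call. The SDs cover only the spread between these lists, which hold largely the same regions. They do not show how a difference between arms would change with other regions.

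In the replicate lists 3L had the lowest share of top-scoring and of broad regions of the 4 interiors, by a small margin for score. The 3 replicates hold largely the same regions, so the same order in each is not separate support. Of its members, 55 of 634, 62 of 691 and 59 of 664 were in the top 10% of their list by score, which is 8.68%, 8.97% and 8.89%. The background over the 4 interiors was 10.9%, 10.3% and 10.9%. In each replicate 3L was the lowest of the 4, with X, 2L and 3R at 12.4%, 10.9% and 11.5% in replicate 1, 10.8%, 11.8% and 9.94% in replicate 2 and 11.0%, 11.4% and 12.2% in replicate 3. Broad regions were also fewest there. Regions of at least 12 kb made up 3.94%, 4.78% and 5.57% of the 3L members, against a background of 5.63%, 7.02% and 7.42%, and 3L was again the lowest of the 4 in every replicate. In the combined list 3L had 10.01% of its regions in the top 10% by score, just above X at 9.88%, so it was not the lowest there. It was the lowest there in regions of at least 12 kb, with 6.93% against 9.62% on X, 10.1% on 2L and 8.81% on 3R. The broad regions of 3L lay in rich windows in 15 of 25, 17 of 33 and 21 of 37 cases, and in poor windows in 1, 1 and 0. A broad region itself raises the share that set the class of its window, so this placing is partly built in. Of the regions in the top 10% by score, 32.7%, 43.5% and 33.9% lay in rich windows, against 38.2%, 38.8% and 37.5% of all members, which is lower in replicates 1 and 3 and higher in replicate 2. Both shares were examined after the lists were seen.

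**Figure D3:**
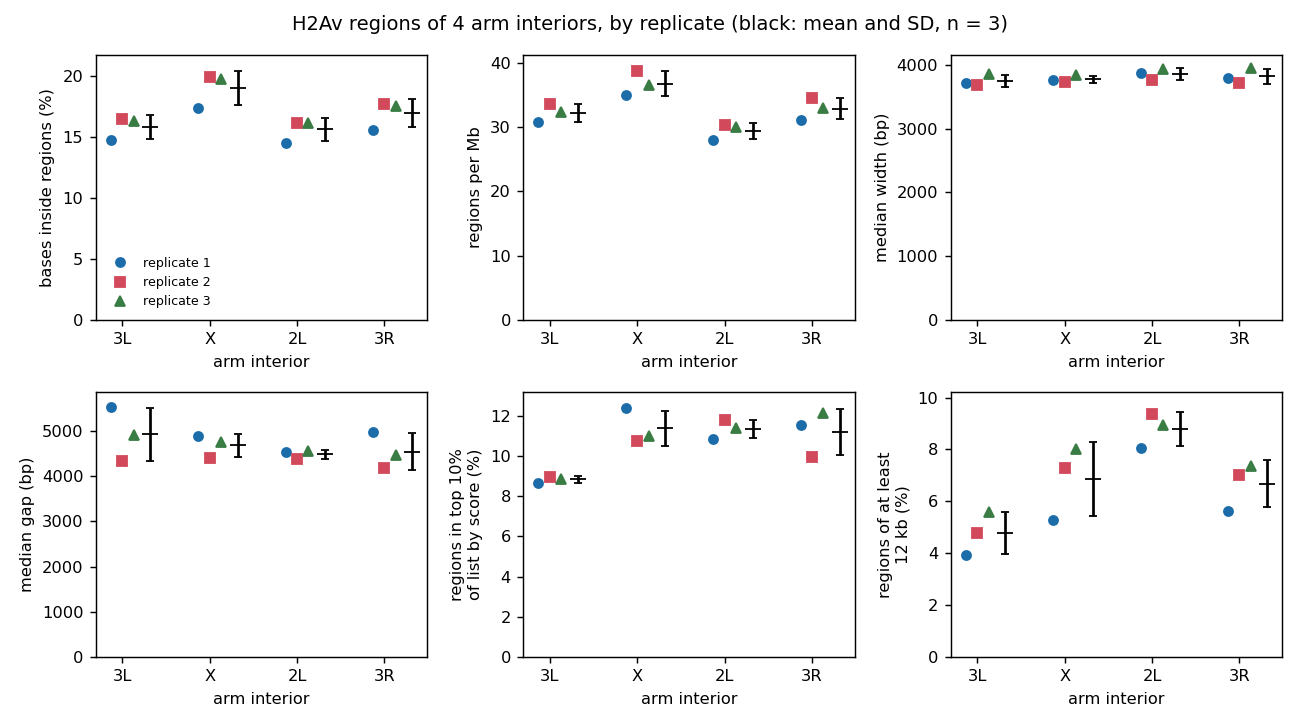
Bases inside regions (%), regions per Mb, median width (bp), median gap (bp), regions in the top 10% of their list by score (%) and regions of at least 12 kb (%) for the interiors of 3L, X, 2L and 3R. Coloured symbols are replicates and black bars the mean and SD (n = 3); 3L is lowest of the 4 in the last 2 panels in every replicate.

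On 3L, as on the other arms, most members lay close together, and long gaps took up most of the interior. Of the gaps between neighbouring members, 63.0% ± 1.17 were under 10 kb and 14.1% ± 0.774 were 50 kb or longer (SD, n = 3), and the long ones took up 58.0% ± 1.53 of the interior. On X, 2L and 3R such gaps took up 55.1% ± 2.72, 64.8% ± 1.98 and 58.4% ± 1.65. Gaps under 10 kb made up 66.4% ± 1.92, 64.2% ± 0.752 and 63.7% ± 2.09 of the gaps there, so the mean on 3L was the lowest. When members less than 50 kb apart were put in 1 group, the 3L interior had 95, 93 and 94 groups. The longest group spanned 609 ± 0.938 kb (SD, n = 3). It ran from 19416192 to 20025119 in replicate 1 with 37 regions, and held 39 and 38 in replicates 2 and 3. Over the replicates its start moved by 475 bp and its end by 1455 bp. The next longest, from 21423555 to 21951349 in replicate 2, was 528 kb long there and 532 kb in replicate 3 but 412 kb in replicate 1.

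Single members with at least 50 kb free on both sides numbered 15, 14 and 13, and 6 of them were alone in all 3 lists. The lowest score percentile of each of these 6 over the 3 lists was 91.7, 72.4, 56.3, 51.9, 41.7 and 1.45. The one at 18734788 to 18743261 (positions of replicate 1) was 8474, 8932 and 9030 bp wide and at percentile 96.4, 92.6 and 91.7 of the scores. Another, at 8883842 to 8889007, was at 76.1, 72.4 and 73.5, while the region at 16948009 to 16950013 was about 2 kb wide and at 12.9, 28.8 and 1.45.

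**Figure D4:**
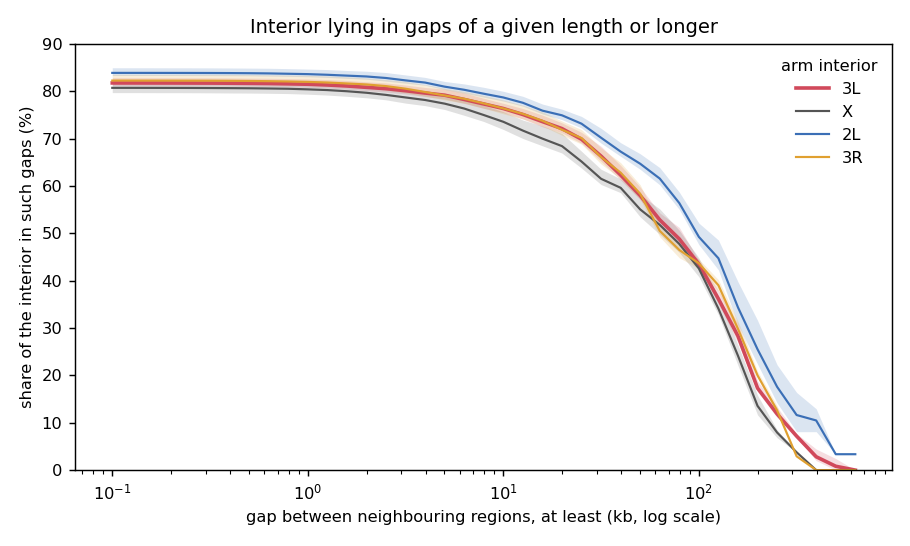
Share of each interior (%) that lay in gaps between neighbouring regions of at least the length on the log-scaled x axis (kb). Lines are means of 3 replicates and bands the range over replicates; at 50 kb the 3L line stands at 58.0%, X at 55.1%, 2L at 64.8% and 3R at 58.4%.

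Stretches with no base in a region of any replicate were also long. The 3L interior had 14 of at least 200 kb, and stretches of at least 100 kb made up 42.9% of it, against 39.04% of X, 46.2% of 2L and 42.3% of 3R. The longest was 412 kb, from 13507966 to 13920406, and contained 5206 bases of combined regions. After it came 345 kb from 18109061 to 18453766, 331 kb from 13042618 to 13373705, 330.2 kb from 15159491 to 15489703 and 293 kb from 11209354 to 11502061. Inside these 4, combined regions held 772, 150, 70 and 579 bases. The stretch after the last member, from 22283661, ran past the limit at 22543557. No region lay near that limit: the last members ended at 22283414, 22283660 and 22283611, and the first regions outside began at 22709046, 22701468 and 22709006. At the telomere-side limit the last regions outside ended at 1971661, 1985845 and 1971873 and the first members began at 2230714, 2230760 and 2228970.

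The fourth question was how far the 3 lists placed the members alike. Within the 3L interior the Jaccard index, which is shared bases over bases in either list, averaged 0.833 ± 0.022 (SD over 3 pairs that share lists). It was 0.858 between replicates 2 and 3, and replicate 1 had 0.816 with replicate 2 and 0.824 with replicate 3. The average was 0.8345 ± 0.020 on 3R, 0.839 ± 0.016 on 2L and 0.808 ± 0.021 on X. Of the bases in regions of any replicate, 76.0% on 3L were in regions of all 3. Agreement was lower where regions were sparse: the mean index was 0.846 ± 0.021 in rich windows and 0.785 ± 0.029 in poor windows.

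Members missing from another list were short and of low score. Of the 634 members of replicate 1, 97.2% shared at least 1 base with a region of replicate 2 and 95.9% with one of replicate 3, whereas 85.7% and 86.7% of the members of replicates 2 and 3 were met in replicate 1. The members of replicate 2 with no counterpart in replicate 1 had a median width of 1667 bp and a median score percentile of 10.7. Among shared members the Spearman correlation of score ranks was 0.869 to 0.917 over the 6 directions of comparison, across regions that are not independent replicates.

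Edges were compared only for regions met once in every replicate, a set picked for agreement. Of the combined regions of 3L, 398 met exactly 1 region in each replicate. Over the 3 replicates their starts spanned a median of 260.0 bp and their ends 277 bp, and 64 of them (16.1%) had both edges within 200 bp. The same spans were 336 and 321 bp on X, 258 and 249 bp on 2L and 257 and 268 bp on 3R, where 11.8%, 15.7% and 17.5% had both edges that close. The median coefficient of variation of width over replicates was 6.62% on 3L.

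The combined list was then set against the replicates. On 3L 519 of its 779 regions met a region in each of the 3 replicates. That is 66.6%, with a Clopper-Pearson exact 95% interval of 63.2 to 69.9 that covers counting error alone, against a background of 64.6% over the 4 interiors. The share was 61.0% (57.5 to 64.4) on X, 67.0% (63.3 to 70.6) on 2L and 64.4% (61.3 to 67.5) on 3R, so the intervals of 3L and each other arm overlapped. The 519 regions held 88.7% of the combined length on 3L and had a median width of 5192 bp and a median score percentile of 68.3.

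Regions with less support were alike in being short and low. A further 58 regions were in 2 replicates, 83 in 1 and 119 in none, with median widths of 2110, 1673 and 1213 bp and median score percentiles of 17.3, 14.0 and 15.3. The shortest region on 3L was 1001 bp in the combined list but 1303, 1305 and 1301 bp in replicates 1, 2 and 3. Of the 119, 71 (59.7%) were at most 1300 bp wide, against 0 of the 519 fully supported regions. Whether the different shortest widths account for the missing support was not tested. Replicate 1 was the one most often missing: 44 regions were in replicates 2 and 3 only, against 5 in 1 and 3 only and 9 in 1 and 2 only. Replicate 1 also had the lowest share and the fewest members. In 121 of the 519 fully supported regions at least 1 replicate had several regions in place of 1, and these had a median width of 9503 bp, against 4373 bp for those met by 1 region in each.

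**Figure D5:**
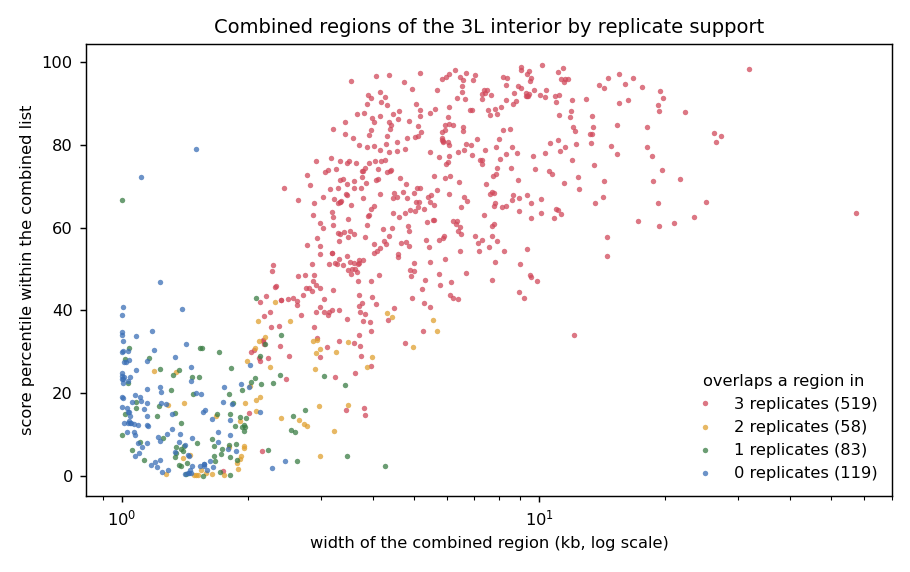
Score percentile within the combined list against width (kb, log scale) for the 779 combined regions of the 3L interior, coloured by the number of replicates in which each overlaps a region. The 519 regions in all 3 replicates have a median width of 5192 bp and percentile 68.3, and the 119 in none have 1213 bp and 15.3.

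Wider members tended to score higher. Across members of replicates 1, 2 and 3 the Spearman coefficient of width with score was 0.761, 0.788 and 0.782, and across combined regions it was 0.796, as a description over regions that are not independent replicates. The widest combined region, 57463 bp from 20405528 to 20462990, lay in the richest window. In the replicates it was 7, 8 and 5 regions that covered 82.4%, 93.3% and 95.3% of it, and its score was at percentile 63.5 of the combined list. The next, 31791 bp from 16578759 to 16610549, was a single region in each replicate, of 31503, 31545 and 31459 bp, and was at percentile 98.1, 98.0 and 99.3. It was the widest member of 3L in all 3 replicate lists, and its widths there lay within 86 bp of each other. The region just before it, 9059 bp from 16569479 to 16578537 and 221 bp away, was at percentile 99.0, 98.7 and 99.2, so the pair formed 41.1 kb of nearly unbroken high-ranking H2Av.

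Other wide regions were 27363 bp from 21546504 to 21573866, 26591 bp from 15132252 to 15158842 and 26217 bp from 12107704 to 12133920, at percentile 71.6 to 85.7 in the replicates. The last was a single region of 26443 bp in replicate 3 and 3 regions in each of replicates 1 and 2. The one from 21546504 was 3, 2 and 1 regions in replicates 1, 2 and 3, and the one from 15132252 was 2 in each. Where a replicate had several regions, the percentile is that of 1 of them. The region from 15132252 ended close to the stretch of 330.2 kb without regions.

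The highest-ranking region over all replicates was 10162 bp from 19791744 to 19801905, inside the longest group, and it was 9902, 10083 and 10055 bp wide in the replicates. It was followed by the pair near 16.6 Mb and by 15548 bp from 8107379 to 8122926, in the longest rich block. The region of 15548 bp was 2 regions in each replicate. Of these, 1 was 10521, 9673 and 10678 bp wide in replicates 1, 2 and 3, at percentile 98.7, 99.1 and 98.5. The fifth, 9054 bp from 6956363 to 6965416, was at 97.8, 99.0 and 99.1 and lay in a window that was neither rich nor poor. The highest-scoring combined regions in no replicate were much shorter. They were 1502 bp from 20329324, 1112 bp from 16613938, 1232 bp from 15548935, 1004 bp from 9367757 and 1391 bp from 13525336, at percentile 78.9, 72.3, 46.8, 40.8 and 40.3 of the combined list. None reached the percentile of any of the 5 highest-ranking supported regions, but those were picked for high percentiles, so this is largely built in. The 519 regions met in all replicates had a median percentile of 68.3 in the combined list. The unsupported regions at 78.9 and 72.3 lay above that median, and those at 46.8, 40.8 and 40.3 lay below it.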

How the data were processed

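The submitters' processing notes name Bowtie 0.12.7 as the aligner. The authors deposited enriched regions in 1 list per ChIP library and 1 combined list, with coordinates of FlyBase release 5 per the file headers. How regions were called and replicates combined is not stated in any header or label. Each region has a deposited score of unstated scale, which was used as a percentile within its list. Widths and gaps depend on the unknown caller.

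Bases inside regions, gaps, windows of 250 kb (a last window under that length was left out) and overlaps of at least 1 base were computed with Python 3.11.15, numpy 2.4.6, pandas 2.3.3 and scipy 1.17.1, and plotted with matplotlib 3.10.9. These functions were checked on simulated data, with 0 mismatches in 50 pairs of lists. Groups and replicate numbers came from the labels. Contrasts of 3L with the mean of the X, 2L and 3R interiors were made within a replicate and tested by an exact sign-flip permutation test. Named regions were the 5 widest combined regions, the 5 with the highest minimum score percentile across replicates, the 5 highest-scoring in no replicate, the 5 longest stretches without regions and the 5 richest and 5 poorest blocks. The 3 lone regions named, the longest groups and further poor windows were picked after their values were seen. The members, measures and rules were all chosen with earlier results of these data known. Gene positions at hand are on another release and were not used.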

Additional observations from a re-analysis of the deposited data

How the results depend on the processing

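The settings tried were the top-scoring 50% of every list, 4 Mb left out at each arm end, regions under 200 bp apart joined, bases in all 3 replicates, windows of 500 kb, the highest or lowest 10% of windows in place of quartiles, equal numbers of regions, overlap of 50% of both regions, leaving out each replicate and, added after the lists were seen, X left out of the background. The 5 contrasts with the other arms kept their direction except for region density, which was 0.050 without X and -0.013 with 4 Mb left out at each end, and whose direction is therefore not resolved. The width contrast was -0.003 ± 0.023 with close regions joined, where the replicates were not of 1 sign (exact permutation p = 0.75), so its direction is not resolved either; joining gave no score contrast. The sign-flip test could not pass a threshold in any setting. With the highest-scoring 50% the log2 ratios were -0.20 for share, -0.08 for width and 0.44 ± 0.17 for spacing, and the score difference was -2.55 points. Spacing was 0.16 with 4 Mb left out. Windows of 500 kb gave 7 rich and 12 poor of 41, and the 10% limits gave 5 and 8. Fewer windows and narrower limits lower such counts by construction, but the split between rich and poor on 3L is not fixed by them. No share over the 4 interiors stands beside these counts. Leaving out a replicate gave 17 to 17 rich and 21 to 22 poor windows. It cannot lower these counts, because a window then has fewer limits to pass. The mean Jaccard index was 0.795 with the highest-scoring 50%. With 1 replicate left out it was 0.816 to 0.858, which are the values of the single pairs given above. Of combined regions, the part met in all replicates was 57.1% with 50% overlap, 99.3% for the highest-scoring 50% of the combined list, 85.8% with equal numbers and 67.3 to 72.3% when 1 replicate was left out. Leaving out a replicate cannot lower this part, because fewer lists have to be met. The highest-scoring 50% leaves out low-scoring regions, and regions with less support were low in score, so that rise is partly built in. The cause of the other changes was not tested. Read depth and alignability are unknown, which limits what a low share can show. No paired analysis was possible because pairing by replicate number would need regions of ChIP and of input, and no regions of input are used here; contrasts between arms were made within a replicate.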
